A study of Homo sapiens with 6 samples.

Results

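The genes described here are the antisense noncoding RNAs of HEK293T cells, that is, noncoding genes whose symbol is the name of another gene followed by -AS and a digit. The expression table held 26391 genes, of which 983 were noncoding and named in this way. The 420 whose mean over all 6 libraries reached 29.4 deposited units were taken as the set. That limit equals 1 CPM, a read count scaled to a common library total. The CPM given below also carry a scaling factor for each library. Of the other 563, 159 were listed at 0 in every library. The level chose the members, so their levels are a description, while the difference between the siRNAs was not used to choose them. Just inside the limit were JAZF1-AS1 at 29.5, SOCS2-AS1 at 29.5, SMIM2-AS1 at 30.1 and ITPR1-AS1 at 30.5 deposited units, and just outside were ARF4-AS1 at 29.0, SOX9-AS1 at 28.9, UBOX5-AS1 at 28.9 and NAGPA-AS1 at 28.3. The mean of 1 of the groups alone lay under the limit for 18 members, none of which was called higher and 5 of which were called lower after silencing. Those 5 were BVES-AS1, CFAP58-AS1, SOCS2-AS1, ALOX12-AS1 and KCNIP2-AS1, which passed the limit only through the control group.

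HEK293T is a human embryonic kidney line that carries part of an adenovirus genome and makes the large T antigen of SV40. A pool of 4 siRNAs against LOC550643, listed under LINC01420, or a control siRNA without a target was given at 50% confluency, and 3 samples per siRNA were collected at 48 h. The study asked whether the small polypeptide made from LOC550643, which binds the decapping scaffold EDC4 and so might act on RNA decay, changes steady-state RNA levels. Only 1 siRNA pool and 1 control siRNA were used, so effects of losing the target and other effects of that pool cannot be told apart, and nothing in the labels says that the 3 samples of a group were grown apart from each other, and a p-value here covers no more than the scatter among the sequenced samples. LINC01420 stood at 56.2, 50.7 and 51.8 CPM in the control libraries and at 5.85, 5.96 and 5.41 CPM after silencing, which is -3.20 on the log2 scale (SE 0.09, limma adjusted p = 6.98e-09). All 10 markers listed for HEK293T were at 1 CPM or more, with a sum of 1137 to 1252 CPM in control and 1251 to 1393 CPM in silenced libraries. Of 12 markers of blood, endothelium, liver and fibroblasts 9 were under 1 CPM, and their sum, mostly COL1A1, was 73.0 to 80.9 against 69.8 to 75.3 CPM. In 5 libraries 30739321 to 36082404 read pairs lay in genes, while the third library of LOC550643 siRNA held 8604236. The second control library stood apart from its group, with a chi-square per degree of freedom over genes of 31.4 and 41.8 against the other controls, which differed from each other by 9.495. It was the highest control library for 43.6% of the members and for 37.5% of all genes tested.

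Natural antisense RNAs are transcribed from the strand opposite to another gene. Some start close to that gene's promoter and run away from it, as divergent transcripts of a shared promoter region, some run through the gene, and some meet its far end. Individual antisense RNAs are known to recruit chromatin regulators, to pair with the sense transcript or to impede its transcription, and for many no function is known. Many are short-lived in the nucleus, where the exosome and its adaptors degrade them. Libraries here recorded the strand, but the command in the header of the deposited table has no strand option. Where exons of a sense and an antisense gene lie over each other, reads of the pair therefore cannot be told apart.

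After silencing of LOC550643, 40 of the 420 antisense RNAs rose and 72 fell, and 308 were not called (limma on log2 values, adjusted p under 0.05 over 16245 genes). The share called was 26.7%, against 35.7% of all genes tested, with 9.52% higher and 17.1% lower against 17.5% and 18.2%. The 642 other noncoding genes at or over the same level were close to the antisense RNAs, with 25.2% called, 8.72% higher and 16.5% lower. Of the 391 tested sense genes of the members 37.6% were called, 77 higher and 70 lower, and 51 were higher without the second library of LOC550643 siRNA. The median log2 fold change was -0.08 over the antisense RNAs, -0.10 over the other noncoding genes, 0.03 over the sense genes and -0.02 over all genes. Control and silenced libraries did not overlap for 173 antisense RNAs (41.2%, against 48.5% of all genes, 38% of the other noncoding genes and 51.4% of the sense genes). The number of rising members was the less stable count. It was 23 without the first control library, 26 without the third and 21 without the second library of LOC550643 siRNA. Falling members numbered 45 without the first control library. With library totals alone as the scaling, which moved the median of all genes by -0.08, 25 members were higher and 99 lower, so the share of higher calls was 20.2% in place of 35.7%. Without the deviating control library 32 were higher and 62 lower, without the shallow silenced library 37 and 54, and without both 44 and 57. In these bulk samples fewer cells with a transcript and less RNA per cell cannot be told apart.

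**Figure D1:**
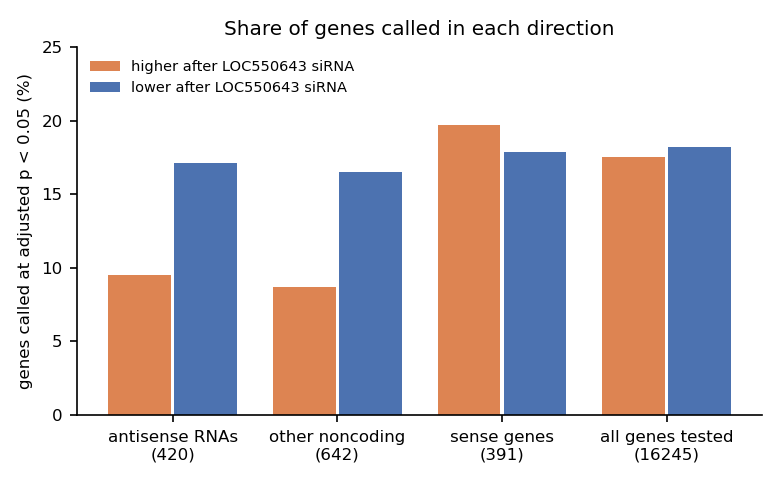
Bars give the percentage of genes called higher (orange) or lower (blue) after LOC550643 siRNA at limma adjusted p under 0.05, for the 420 antisense RNAs, 642 other noncoding genes at the same level, 391 sense genes and all 16245 genes tested. Both noncoding sets have fewer higher than lower calls (9.52% and 17.1% for the antisense RNAs), while sense genes and all genes have about equal shares.

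The called antisense RNAs lay between log2 fold changes of -1.75 and 0.89, with medians of 0.44 for those that rose and -0.57 for those that fell, and 67 of the 112 called differed by less than 1.5-fold (59.8%, against 71.2% of the 5793 calls over all genes). A fall past 2-fold was called for 6 members (1.43%, against 2.09% of all genes) and a rise past 2-fold for 0 (40 rises were called at any size, and 0.683% of all genes had a rise past 2-fold). Among the 6 are BVES-AS1, CFAP58-AS1 and SOCS2-AS1, with silenced means of 0.968, 0.745 and 0.669 CPM, which passed the level limit only through the control group. SOCS2-AS1 was at -1.09 on the log2 scale, and at -0.62 without the third silenced library and -0.81 by edgeR. Members were mostly weakly expressed, with a median of 4.18 CPM, 107 under 2 CPM and 13 at 50 CPM or more. The share called moved with level: it was 15.7% over the 140 members with the lowest mean level, 28.6% over the middle 140 and 35.7% over the highest 140. Per kilobase of listed length, 323 of 411 antisense RNAs with a sense gene in the table stood below that gene, and the sense level was a median of 3.50 times the antisense level.

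A sense gene was found in the table for 411 members, for 407 under the same symbol and for 4 under an older one. These were 405 genes, since 12 members share a sense gene with another member, such as HIF1A-AS1 and HIF1A-AS2. The remaining 9 were HOXA-AS2, HOXA-AS3, HOXB-AS1, HOXB-AS3, HOXC-AS1, HOXC-AS2 and HOXD-AS2, which are named after a cluster, RPARP-AS1 and TRG-AS1. The largest group by position were 133 pairs that lie head to head without overlap, with a median of 166 bases between the starts, and 91 of them under 300 bases. Another 116 pairs were head to head with overlapping ends, 84 met tail to tail with overlap, 45 antisense RNAs lay inside the sense gene, 17 enclosed it, and 15 pairs lay tail to tail apart. In 1 pair both were listed on the same strand.

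The head to head pairs with a short gap share 1 stretch of DNA between the starts, and 4 such stretches are shown because they separate genes with unlike calls: in 3 pairs the genes on the sides were called in opposite directions and in 1 the antisense RNA alone was called. They were read from the hg19 reference, the build of the table, from the base after one listed start to the base before the other. Each is written on the strand of the antisense RNA, which is the minus strand for EIF3J-AS1 and the plus strand for the others. Capitals mark exact matches to motifs on either strand. The GC box was searched as GGGCGG, which reads CCGCCC when it lies on the other strand. The CCAAT box carries its letters in its name and reads ATTGG on the reverse strand. For the E box the letters searched were CACGTG, which is its own reverse complement. Of the motifs with no match in any of the 4 stretches, the TATA box was searched as TATAAA, the cAMP response element was searched as TGACGTCA, and the ETS site was searched as CCGGAAG. Overlapping matches were each counted.
MNX1-AS1 and MNX1, chr7:156803348-156803550: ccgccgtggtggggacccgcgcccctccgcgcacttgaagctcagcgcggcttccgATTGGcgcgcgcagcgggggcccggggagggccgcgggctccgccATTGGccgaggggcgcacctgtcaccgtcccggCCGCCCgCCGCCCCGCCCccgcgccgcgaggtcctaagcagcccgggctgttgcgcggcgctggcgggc
EIF3J-AS1 and EIF3J, chr15:44829122-44829265: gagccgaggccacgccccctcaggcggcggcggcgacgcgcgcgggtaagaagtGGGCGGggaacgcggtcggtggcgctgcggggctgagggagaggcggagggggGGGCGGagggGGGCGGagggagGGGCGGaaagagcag
CEBPA-AS1 and CEBPA, chr19:33793471-33793762: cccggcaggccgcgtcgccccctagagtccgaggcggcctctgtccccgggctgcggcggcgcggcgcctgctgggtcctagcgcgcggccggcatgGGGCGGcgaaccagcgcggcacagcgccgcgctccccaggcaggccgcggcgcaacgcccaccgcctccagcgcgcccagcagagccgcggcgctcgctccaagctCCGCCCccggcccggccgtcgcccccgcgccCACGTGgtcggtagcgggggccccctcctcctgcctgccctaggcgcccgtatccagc
CECR5-AS1 and CECR5, chr22:17640170-17640278: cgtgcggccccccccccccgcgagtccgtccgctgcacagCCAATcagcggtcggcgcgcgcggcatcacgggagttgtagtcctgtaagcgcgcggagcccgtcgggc

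The stretch between MNX1-AS1 and MNX1 has 3 GC boxes and 2 CCAAT boxes in 203 bases, and that of EIF3J-AS1 has 4 GC boxes in 144 bases. The CEBPA-AS1 stretch has 2 GC boxes and 1 E box in 292 bases, and the CECR5-AS1 stretch 1 CCAAT box and no GC box in 109 bases. At least 1 GC box or CCAAT box is common. Among 25524 stretches of the same length upstream of listed starts, at least 1 GC box was found in 43.5% at 203 bases, 39.4% at 144 and 47.2% at 292. At least 1 CCAAT box was found in 28.5% at 203 and 19.7% at 109, and the E box in 7.09% at 292. How often a stretch holds several matches was not counted. A match is a description of the letters and does not show that a factor binds. Over the 83 pairs with 30 to 300 bases between the starts the median GC content of the stretch was 71.1%, against 62% for the 100 bases upstream of all listed starts. The 2 sets are unlike, since the window lengths differ and the listed starts include genes at any level.

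Of the antisense RNAs with groups that did not overlap, RUNDC3A-AS1 (hg19 chr17:42376942-42385799, minus strand) fell most. It stood at 9.21, 9.39 and 9.59 CPM in control and at 2.71, 2.26 and 3.45 CPM in silenced libraries, and this amounts to -1.75 on the log2 scale (SE 0.16, limma adjusted p = 1.7e-05). The highest silenced library was far under the lowest control library. Its sense gene RUNDC3A, a RUN domain protein gene of neurons, with a divergent start, fell with it, from 2.58, 2.66 and 2.73 CPM to 1.19, 0.690 and 0.595 CPM (log2 -1.71). BVES-AS1 is divergent from BVES, the gene of a cAMP-binding membrane protein, and fell from 2.81, 2.13 and 2.37 CPM to 1.13, 1.18 and 0.595 CPM (log2 -1.35, SE 0.26). Its silenced mean of 0.968 CPM lay under the level limit. BVES fell as well, by 0.71 on the log2 scale from a control mean of 47.9 CPM.

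Other large falls had a sense gene that was not called. EP300-AS1 (chr22:41581219-41593505, minus strand), which lies beyond the far end of the histone acetyltransferase gene EP300, stood at 6.61, 6.07 and 6.41 CPM in control and at 2.52, 2.95 and 2.56 CPM in silenced libraries (log2 -1.24, SE 0.13, limma adjusted p = 5.11e-05). EP300 itself varied more between controls, at 82.5, 122 and 64.8 CPM, than between groups (log2 -0.28, adjusted p = 0.31). CFAP58-AS1, divergent from the cilia and flagella gene CFAP58, fell by 1.31 on the log2 scale from 2.25, 1.77 and 1.299 CPM to 0.623, 1.20 and 0.416 CPM, with limma adjusted p = 0.013, and CFAP58 was not called (log2 0.19). Without the first control library CFAP58-AS1 was no longer called (log2 -1.12, adjusted p = 0.063). PAXBP1-AS1, tail to tail with the gene of the PAX-binding protein PAXBP1, fell by 0.90 while PAXBP1 was at -0.10 and not called. CECR5-AS1 fell from 2.91, 2.67 and 2.72 CPM to 1.88, 1.72 and 1.19 CPM (log2 -0.81, SE 0.20), and CECR5, 109 bases away, stood at 114 and 116 CPM on average in the control and silenced groups and was not called.

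PSMB8-AS1 (chr6:32811863-32814277, plus strand) is named after PSMB8, a catalytic subunit of the immunoproteasome, but that gene was near 0, with a highest value of 0.119 CPM. The antisense RNA stood at 7.78, 8.21 and 6.82 CPM in control and 3.54, 3.45 and 2.91 CPM in silenced libraries (log2 -1.20, SE 0.14). Its listed span lies over 1292 bases of the gene of the antigen peptide transporter TAP1, which fell from 39.7, 38.7 and 39.2 CPM to 17.0, 18.6 and 14.1 CPM (log2 -1.25, limma adjusted p = 1.02e-05). PSMB8, PSMB8-AS1 and TAP1 lie in the histocompatibility region and are each listed with 8 copies in the genome. The assignment of reads to any of them is therefore uncertain, and this includes the values of PSMB8 near 0.

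The calls of 3 further falling members were lost when single libraries were left out. SOCS2-AS1 had 1.12, 1.48 and 1.37 CPM in control and 0.985, 0.724 and 0.297 CPM in silenced libraries (log2 -1.09, limma adjusted p = 0.039). The adjusted p over its 17 alternatives ran from 0.016 to 0.14 and 11 of them lost the call, among them leaving out any library of the control group, where the log2 fold change was -1.20, -1.01 and -1.06, or the second or the third silenced library, with -1.21 and -0.62. ALOX12-AS1, at 1.28, 1.58 and 1.27 CPM against 0.913, 0.960 and 0.357 CPM (log2 -0.97, limma adjusted p = 0.044), lost its call in 9 of 17 alternatives, with log2 values of -1.02, -0.88 and -1.03 without the control libraries in turn and -0.54 without the third silenced library. KCNIP2-AS1, at 1.77, 1.58 and 1.48 against 0.782, 1.20 and 0.773 CPM (log2 -0.81), was not called without the first control library (-0.75) or the first silenced library (-0.72). The sense genes of all 3 were lower, with log2 fold changes of -0.34 for SOCS2, a suppressor of cytokine signalling, -0.69 for the 12-lipoxygenase ALOX12 and -0.92 for the potassium channel-interacting protein KCNIP2. In each of these pairs the listed spans overlap, and whether shared reads enter the common fall was not tested. The ALOX12 call was lost without the second control library (-0.50) and without the third silenced library (-0.61).

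The largest rise was that of USP27X-AS1 (chrX:49641327-49643959, minus strand), which stood at 2.13, 2.66 and 2.87 CPM in control and at 4.49, 4.76 and 4.93 CPM in silenced libraries (log2 0.89, SE 0.15, limma adjusted p = 0.00105). The divergent deubiquitinase gene USP27X was not called, with a log2 fold change of -0.19 and values of 12.98, 14.2 and 13.8 against 11.3, 12.6 and 12.01 CPM. DLG5-AS1 rose by 0.75, from 2.40, 3.43 and 2.45 CPM to 4.51, 5.05 and 4.28 CPM, beside the scaffold gene DLG5, which was at -0.22 and not called. LIPE-AS1, whose span encloses LIPE, the gene of hormone-sensitive lipase, rose from 9.93, 8.11 and 11.03 CPM to 17.9, 14.3 and 15.6 CPM (log2 0.72), and LIPE stayed under 1 CPM in every library. DNAJC27-AS1 rose by 0.81 (limma adjusted p = 0.016) with the J-domain gene DNAJC27 at 0.08, but the call was lost without the second control library (0.64) and without the first silenced library (0.68). SPATA3-AS1 rose by 0.66 next to SPATA3, which was listed at 0 in all 6 libraries, and lost its call without the third control library (0.54).

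In the other large rises the sense gene was higher too, with the exception of POT1. HLTF-AS1 stood at 5.98, 7.33 and 8.12 CPM in control and 12.8, 11.4 and 11.2 CPM in silenced libraries (log2 0.74, SE 0.13), and HLTF, a SWI/SNF-family helicase gene, rose from 273, 292 and 322 to 389, 429 and 441 CPM (log2 0.51). COL4A2-AS1, inside the type IV collagen gene COL4A2, rose from 1.07, 1.02 and 1.07 to 1.83, 1.58 and 1.90 CPM (log2 0.73), and COL4A2 rose by 0.63. SH3RF3-AS1 rose from 4.97, 4.86 and 5.14 CPM to 8.22, 7.27 and 8.56 CPM (log2 0.68), with the ubiquitin ligase gene SH3RF3 at 0.48. SMARCA5-AS1 rose by 0.64, from 20.3, 20.96 and 25.1 CPM to 34.9, 35.4 and 32.9 CPM, inside the gene of the ISWI remodelling ATPase SMARCA5 (log2 0.33). The SMARCA5 call was lost without the first control library (0.28) and without the second silenced library (0.28). RBM26-AS1 rose by 0.71 and the divergent RNA-binding protein gene RBM26 by 0.28. JAKMIP2-AS1 rose by 0.68 (limma adjusted p = 0.029) with JAKMIP2 at 0.63, and lost its call in 7 of 17 alternatives, among them without the first (0.56) or the second (0.67) control library and without the second (0.75) or the third (0.52) silenced library. POT1-AS1, at 1.22, 1.18 and 1.07 against 1.42, 1.77 and 2.38 CPM (log2 0.64, limma adjusted p = 0.044), lost its call in 13 of 17, including without each control library in turn (0.68, 0.64 and 0.58) and without the second (0.66) or the third (0.45) silenced library, and the telomere gene POT1 was at -0.05 and not called.

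**Figure D2:**
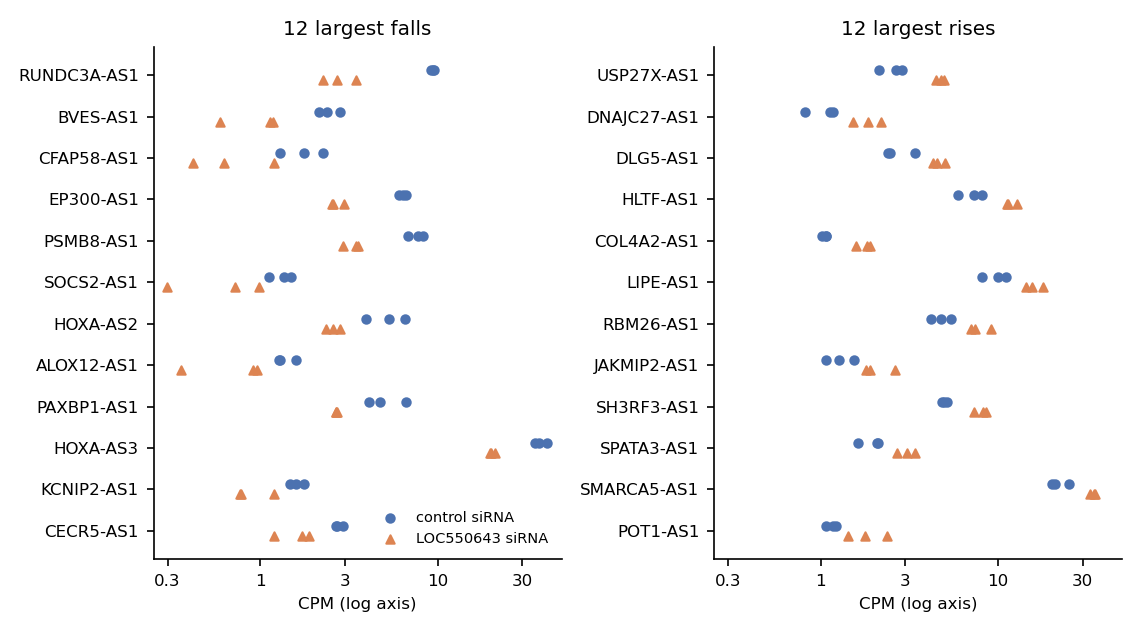
Each point is 1 library, with CPM on a log axis, for the 12 antisense RNAs with the largest falls (left) and the 12 with the largest rises (right) among those called and without overlap; circles are control and triangles LOC550643 siRNA. The groups are widest apart for RUNDC3A-AS1, at 9.21 to 9.59 CPM against 2.26 to 3.45 CPM, and nearly touch for CFAP58-AS1, SOCS2-AS1 and POT1-AS1.

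The changes of the antisense RNAs were set beside those of their sense genes, by whether the pair shares exon bases. Both genes were tested in 397 pairs, and in 58 of these both were called, in 46 pairs in the same direction (21 higher, 25 lower) and in 12 in opposite directions. Without the first control library these were 23 and 4, without the second silenced library 23 and 4, and without the third control library 26 pairs had the same direction. Exons could be placed for both genes in 265 tested pairs, for GENCODE transcripts close to the listed span and length or for genes of a single exon. Among the 136 pairs that share exon bases, Pearson's r between the log2 fold changes of the antisense RNA and the sense gene was 0.59 across pairs, 75.7% had the same sign, and 22 were called in the same and 2 in opposite directions. Among the 129 with no shared exon base r was -0.05, 48.8% had the same sign, and 8 were called in the same and 7 in opposite directions. The 132 pairs without known exons for both lay between, with r = 0.44. They include pairs whose listed spans lie apart, such as PRKAR2A-AS1 and PRKAR2A, which share no exon base. Over all 146 pairs with spans apart r was 0.09. The points of each r share the 6 libraries, genes are not independent replicates, and the pairs that share exon bases also share reads. Over 18 alternatives r ran from 0.49 to 0.61 with shared exon bases and from -0.09 to 0.00 without.

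**Figure D3:**
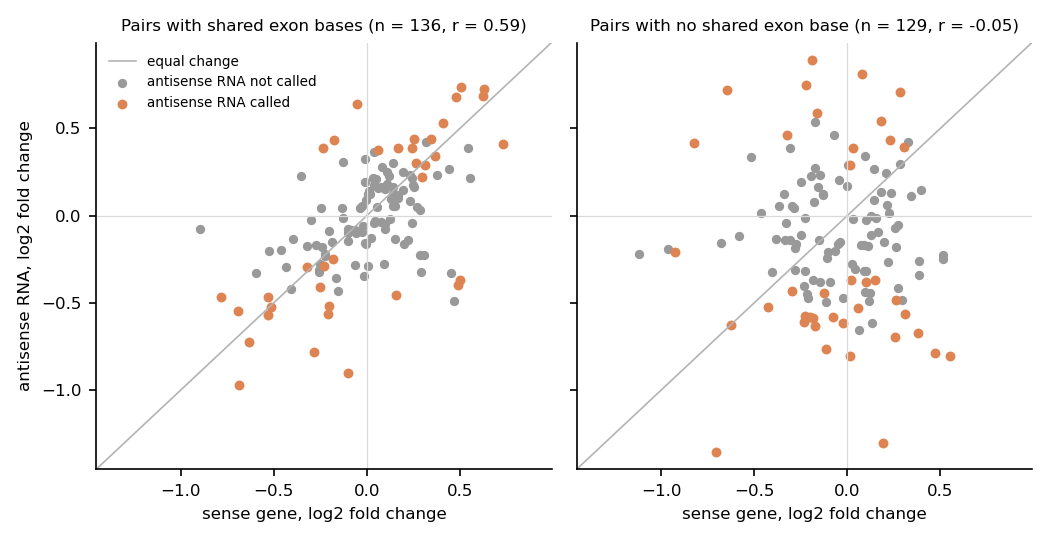
Each point is a pair, with the log2 fold change of the sense gene on the x axis and of the antisense RNA on the y axis; orange points are antisense RNAs called at adjusted p under 0.05 and the line marks equal change. The 136 pairs with shared exon bases (left) spread along the line (r = 0.59), and the 129 with none (right) show no such slope (r = -0.05).

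By position, r was 0.68 over 78 pairs that overlap tail to tail, 0.55 over 45 antisense RNAs inside the sense gene, 0.38 over 114 overlapping head to head pairs and 0.10 over 130 head to head pairs that lie apart. In the last group 7 pairs were called in the same and 8 in opposite directions. Of the 152 members that share no exon base with any listed gene whose exons could be placed, 13 were higher and 37 lower (8.55% and 24.3%). Of the 152 that share some, 19 were higher and 21 lower (12.5% and 13.8%). Listed genes without placed exons could not enter this comparison, so bases shared with them are not known. The difference between these sets was not tested.

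The reads that a sense gene would add to an antisense RNA can be estimated from the sense level per base and the number of shared exon bases, taking the sense gene as evenly covered. This prediction came to a median of 62.3% of the level counted for the antisense RNA (quartiles 20.3% and 89.0%, 136 pairs). It was 50% or more in 79 pairs, 100% or more in 24 and under 10% in 24. Pairs with a prediction under 10% had r = 0.20 between the log2 fold changes, those from 10% to 50% had r = 0.69 over 33 pairs, and those at 50% or more r = 0.67 over 79 pairs. HLTF-AS1 shares 147 exon bases with HLTF and was predicted at 104% of its level, COL4A2-AS1 with 81 shared bases at 91.4%, SH3RF3-AS1 with 909 at 63.7%, POT1-AS1 with 69 at 63.1% and JAKMIP2-AS1 with 498 at 38.1%. Coverage along a gene is not even in poly-A libraries, so single predictions are rough, and the levels of antisense transcription in these pairs cannot be told from this table.

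**Figure D4:**
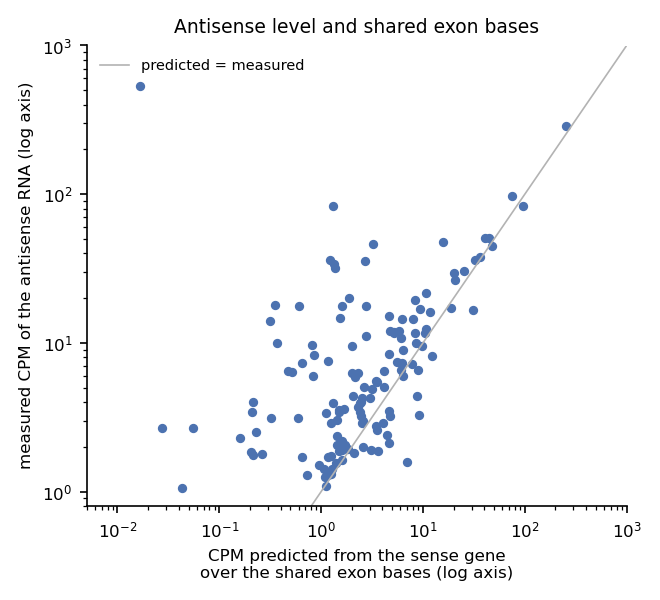
For the 136 pairs that share exon bases and had both genes tested, the CPM predicted from the sense gene over the shared bases (x, log axis) is set against the CPM counted for the antisense RNA (y, log axis); the line marks equal values. Most points lie near the line or above it, with a median prediction of 62.3% of the counted level, and LRRC75A-AS1 is the point at the top left.

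The most abundant antisense RNAs show the same limit. MIF-AS1 (chr22:24235897-24241117, minus strand) had the highest mean, 922 CPM, and rose from 921, 738 and 759 CPM to 1092, 1009.9 and 1012 CPM (log2 0.37, SE 0.10, limma adjusted p = 0.012). Its span encloses MIF, the gene of a cytokine, which had the same log2 fold change, and the ratio of the 2 counts was 1.03 to 1.04 in every library. VIM-AS1, head to head with the intermediate filament gene VIM, was counted at 248 to 315 CPM, of which 641 shared exon bases predict 88.9%, and was not called (log2 0.15). PCNA-AS1, inside the gene of the replication clamp PCNA, was counted at 83.0 to 111 CPM, with 78.0% predicted, and per kilobase the antisense and the sense gene were alike, at 253 and 230 CPM per kilobase. Its log2 fold change was 0.04 and took the other sign when the second control library (-0.06) or the first silenced library (-0.05) was left out or under library totals (-0.03).

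LRRC75A-AS1, a snoRNA host transcript, was a different case, since it shares 3 exon bases with LRRC75A and stood at 30.02 to 38.4 times its count. It was not called, with 647, 499 and 591 CPM in control and 573, 448 and 459 CPM in silenced libraries (log2 -0.23, limma adjusted p = 0.14), and its log2 fold change was -0.34 and called without the second control or without the first silenced library. FGD5-AS1 stood apart from FGD5, a guanine nucleotide exchange factor gene, and was at 133, 134 and 141 CPM in control and 115, 120 and 117 CPM in silenced libraries (log2 -0.21, limma adjusted p = 0.025). Both fell, FGD5 by 0.93 on the log2 scale from 1.67 to 0.867 CPM on average. The FGD5-AS1 call was lost without the first (-0.23) or the third (-0.18) control library and without the first (-0.19) or the third (-0.21) silenced library. THAP9-AS1 was at 91.4 to 94.3 CPM in control and 91.8 to 105 CPM in silenced libraries and was not called (log2 0.06, and -0.02 under library totals or -0.002 without the first silenced library).

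In 12 pairs the antisense RNA and the sense gene were called in opposite directions. In 10 of them the antisense RNA fell and the sense gene rose. In 8 of the 12 the listed spans lie apart, so no exon base is shared, and for 7 of these 8 the exons of both genes could be placed. The pairs were chosen for this difference, so their ratios are described without a test. MNX1-AS1 (chr7:156803551-156809118, plus strand) stood at 11.9, 9.30 and 9.57 CPM in control and at 5.94, 6.47 and 5.17 CPM in silenced libraries (log2 -0.80, SE 0.13). MNX1, a motor neuron homeobox gene across the 203 bases shown, rose from 34.4, 34.8 and 32.8 to 52.7, 51.8 and 45.4 CPM (log2 0.55, SE 0.08). The log2 ratio of antisense to sense was -1.53, -1.90 and -1.77 in control and -3.14, -2.99 and -3.13 in silenced libraries, a difference of -1.35. PRKAR2A-AS1 fell by 0.77 and PRKAR2A, a regulatory subunit of protein kinase A, rose by 0.39, with a difference in log2 ratio of -1.16. FOXP4-AS1 fell from 2.10, 1.58 and 1.88 CPM to 0.985, 0.859 and 1.37 CPM (log2 -0.79, limma adjusted p = 0.019) while the forkhead gene FOXP4 rose by 0.47. CTBP1-AS2 fell from 15.2, 13.5 and 13.95 CPM to 10.7, 9.75 and 8.50 CPM (log2 -0.56) and the corepressor gene CTBP1 rose by 0.31. In these 4 pairs the ratio was lower in every silenced library than in any control library.

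NR2F1-AS1 was a reverse case, with 5.95, 5.86 and 6.02 CPM in control and 7.19, 7.76 and 8.98 CPM in silenced libraries (log2 0.42, limma adjusted p = 0.018), while the nuclear receptor gene NR2F1 fell from 106, 108 and 103 to 52.2, 71.1 and 57.1 CPM (log2 -0.82). CEBPA-AS1 was the other one, and rose from 5.60, 5.09 and 5.43 CPM to 7.59, 8.10 and 6.60 CPM (log2 0.46), while CEBPA, a leucine zipper transcription factor gene, fell from 29.2, 30.6 and 28.5 to 22.5, 23.8 and 24.2 CPM (log2 -0.32). EIF3J-AS1 fell from 14.9, 14.4 and 14.3 CPM to 9.53, 9.56 and 7.91 CPM (log2 -0.69), and EIF3J, a translation initiation factor gene, rose by 0.25. PITPNA-AS1 shares 384 exon bases with the phospholipid transfer gene PITPNA, which predict 72.6% of its level. It fell from 20.3, 15.6 and 18.8 CPM to 15.6, 13.3 and 13.4 CPM (log2 -0.37, limma adjusted p = 0.026) while PITPNA rose by 0.50. Of these, FOXP4-AS1 was not called without the first (-0.70) or the third (-0.78) control library or without the first (-0.75) or the second (-0.65) silenced library, NR2F1-AS1 without the first control (0.42) or the third silenced (0.33) library, and PITPNA-AS1 without the first (-0.29) or the third (-0.34) control or the second (-0.33) or the third (-0.33) silenced library. Further opposite pairs included PPP3CB-AS1, HHIP-AS1 and EML2-AS1, with falls of 0.40, 0.54 and 0.36 on the log2 scale against rises of 0.49, 0.64 and 0.31 in the sense gene. The limma adjusted p of these falls was 0.030, 0.040 and 0.019. PPP3CB-AS1 shares 13 exon bases with its sense gene. HHIP-AS1 and EML2-AS1 overlap the span of theirs, and their shared exon bases are not known.

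**Figure D5:**
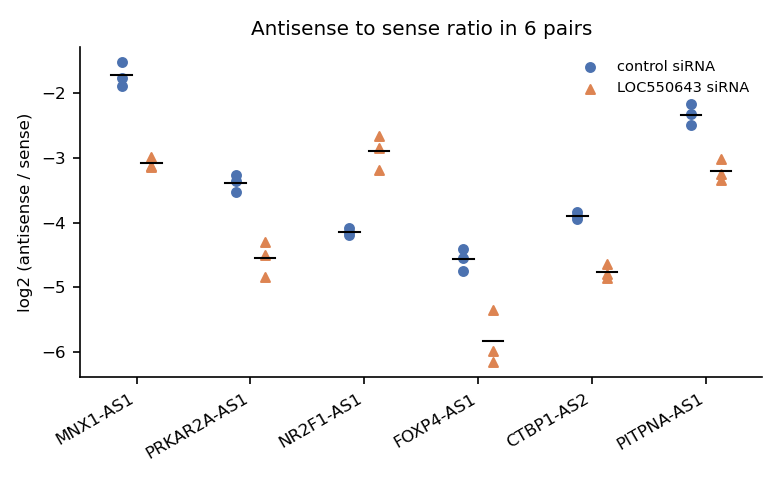
Points give the log2 ratio of antisense to sense deposited values (each + 1) in each library for 6 pairs called in opposite directions, with circles for control, triangles for LOC550643 siRNA and lines for group means. The groups are apart in all 6, by -1.35 for MNX1-AS1 and by 1.24 in the other direction for NR2F1-AS1; the pairs were chosen for this difference.

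Grouped by the kind of gene they are named after, a grouping made with the values known and not tested, the members are described by counts. Of all members 17.1% were lower and 9.52% higher, and of all genes 18.2% and 17.5%. Of 14 members named after HOX clusters, LHX, NKX, MNX, DLX, LBX or MEIS genes, which pattern the embryo, 8 fell, 0 rose and 6 were not called, with a median log2 fold change of -0.49 and 12 of 14 below 0. Members named after other homeobox genes, such as HLX and PROX1, were not counted in this group. In the HOXA cluster HOXA-AS2 fell from 5.35, 6.52 and 3.92 CPM to 2.33, 2.83 and 2.56 CPM (log2 -0.997, SE 0.19). HOXA-AS3 (chr7:27186782-27195547, plus strand) fell from 35.4, 41.2 and 37.03 CPM to 19.8, 20.98 and 20.03 CPM (log2 -0.90, SE 0.08, limma adjusted p = 2.13e-05). It shares 1507 exon bases with HOXA7, which predict 45.1% of its level, and HOXA7 fell as well, by 0.58. HOXB-AS1 fell by 0.72 and HOXC-AS1 by 0.45, while HOXB-AS3 (-0.08), HOXC-AS2 (-0.25) and HOXD-AS2 (-0.23) were not called. Members named after forkhead, GATA, SOX, T-box, NR2F and C/EBP genes were mixed, with 3 of 12 higher and 3 lower. CEBPB-AS1 was among those that rose, from 31.7, 31.2 and 31.6 CPM to 50.3, 46.5 and 39.6 CPM (log2 0.52). Of 14 named after zinc finger genes 2 fell and 0 rose (11 were below 0), and of 7 named after SLC transporters 0 were called, with a median of 0.15. Of 7 named after TMEM genes 2 rose and 1 fell, and of 4 named after proteasome genes 2 fell and 0 rose.

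A list of 38 factors that act on antisense or double-stranded RNA had 35 genes tested, of which 6 rose and 3 fell (17.1% and 8.57%, against 17.5% and 18.2% of all genes), with a median log2 fold change of 0.10, so the share that rose was that of the background. DROSHA, the nuclease that crops microRNA precursors, rose from 62.4, 67.2 and 61.4 to 80.2, 90.8 and 88.5 CPM (log2 0.44, SE 0.07). PAPD7, a noncanonical poly(A) polymerase, rose by 0.39 and the decapping enzyme DCP2 by 0.40, from 110, 153 and 118 to 156, 158 and 186 CPM. The DCP2 call was lost without the first (0.30) or the third (0.36) control library or the third silenced library (0.32), and under library totals (0.33). EDC4 was not called (log2 -0.05). The exosome-linked genes SKIV2L2, EXOSC10 and SRRT were higher by 0.24, 0.18 and 0.24, EXOSC10 with limma adjusted p = 0.047. DIS3 at 0.21, RBM7 at 0.18 and PAPD5 at 0.02, also in the list, were not called. Neither were ZCCHC7 and ZCCHC8, at -0.11 and -0.18. ZFC3H1, which links the nuclear exosome to polyadenylated RNA, fell from 123, 179 and 131 to 88.3, 95.7 and 106 CPM (log2 -0.56), with the deviating second control library the highest. The double-stranded RNA sensor TLR3 fell by 0.90 and DHX58, a helicase of the same response, by 0.80, both from about 2 CPM, and DHX58 was not called without the first control library (-0.74). IFIH1 and DDX58, cytoplasmic sensors, were at -0.01 and 0.15 and not called. Whether any of these changes bears on the antisense RNAs was not tested.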

How the data were processed

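RNA of 6 HEK293T samples, 3 per siRNA, was sequenced as paired 75 base poly-A dUTP libraries, per the labels' protocols, which name CASAVA 1.8.2, STAR 2.4.0k, hg19 and edgeR 3.6.8. Reads in exons were counted with HOMER, per the file headers, and the authors deposited a signal per gene scaled to an equal total per library, next to their log2 fold changes and adjusted p-values. At adjusted p under 0.05 the authors' deposited table has higher values for 36 members and lower for 65, and 99 had the same call as here. Deposited values were whole multiples of 1 step per library (100% within 0.1 step), from which read pairs were recovered. Values were scaled with TMM factors, filtered with filterByExpr (minimum 10 read pairs) and fitted with limma 3.58.1 (trend, two-sided) on log2(value + 1), adjusted over 16245 genes with the Benjamini-Hochberg method, the scale of all fold changes given. edgeR 4.0.16 and DESeq2 1.42.0 on recovered pairs were alternatives, as were other scalings, filters, pseudocounts and left-out libraries. Scripts ran in R 4.3.3 and Python 3.11.15 and were tested on simulated data. CPM are shares of the deposited totals, and their depth limits precision: 3 read pairs equal 0.0831 to 0.0976 CPM in 5 libraries and 0.349 CPM in the shallow one, for counting error only. Exons came from GENCODE 44 on GRCh37 for 252 members. A transcript on the same strand was taken where its differences in start, end and length summed to at most 25% of the listed length. Gene names were not used for this match. For 52 members exons came from the span of single-exon genes, and 116 members had none. Named genes were the 12 largest rises and falls among called members without overlap, the 6 highest levels, 6 opposite pairs by p and 6 listed factors, with sense genes. Other genes were named for a count or a neighbour after their values were seen. The members and lists were chosen with earlier results of these data known. 1 opposite pair and 1 stretch between starts are not reported here.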

Additional observations from a re-analysis of the deposited data

How the results depend on the processing

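The 6 antisense to sense ratios kept their sign under every alternative run, and of 156 values for these ratios and for the counts of members, sense genes and pairs 136 kept that sign or stayed within 1.5 times the reported count. At an adjusted p of 0.01, 14 members were higher and 36 lower, 44 sense genes higher and 41 lower, and 14 pairs had the same and 3 opposite directions. Members that share no exon base with a listed gene whose exons could be placed gave 13 higher and 37 lower, by construction from fewer genes. Library totals alone gave 25 higher members. Without the filter on low genes 27 pairs had the same direction. For the last 2 settings the cause was not tested. Leaving out 1 library gave 21 to 37 higher and 45 to 62 lower members, 51 to 74 higher sense genes, 23 to 40 pairs with the same direction and 4 to 11 with opposite directions. Same-numbered samples were not treated as paired. Their deviations from the group means correlated at 0.06, -0.28 and -0.12, and those of unlike-numbered samples at -0.14 to 0.25. Deviations within a group are not independent, so these values cannot settle whether samples were paired. In the fit with a replicate block 34 members were higher and 63 lower. Among 75 named genes, 12 values took the other sign, all of genes that were not called. CECR5 was at -0.0124 with upper-quartile scaling, -0.0591 with library totals, -0.00243 without the second control and the last silenced library together, and -0.0457 to 0.0757 with 1 library left out. PCNA-AS1 was at -0.0325 with library totals, -0.000755 without both libraries and -0.0647 to 0.105 with 1 left out, PCNA at -0.129 to 0.0155 with 1 left out, and THAP9-AS1 at -0.0206 with library totals and -0.00211 to 0.0915 with 1 left out. Calls were lost in 76 and gained in 6 of the other values, most often without the first control library (13). Depth limits the weakest members: after thinning all libraries to the shallowest, 30 were higher and 59 lower and r over pairs with shared exon bases was 0.49.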
